A study of Homo sapiens with 6 samples.

Results

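The genes described here are 9 surface proteins by which stem cells, mesenchymal stromal cells and tumour-initiating cells are sorted, with CD90 among them: THY1 (CD90), CD44, PROM1 (CD133), EPCAM, ENG (CD105), ALCAM (CD166), MCAM (CD146), KIT (CD117) and LGR5. They were taken by gene symbol alone, and all 9 were among the 20811 genes measured. The cells were HuCCT1, an established human line of intrahepatic cholangiocarcinoma, a cancer of the bile ducts within the liver. The HuCCT1/CD90+ line carried a lentivirus with human THY1 and green fluorescent protein (THY1-CMV-GFP), and the HuCCT1/CD90- line carried the blank control virus (Lenti-CMV-GFP-2A-Puro-Blank), both with the CMV promoter, a viral promoter that is active in most cells. Both were transduced at the same multiplicity of infection and kept in the same RPMI medium with serum, and 3 libraries were made of each. Whether a line was 1 clone or a pool of transduced cells is not given in the sources used here, and each virus was represented by 1 line, so the effect of the transgene and other differences between the 2 lines cannot be told apart. The comparison addressed which other stem cell surface markers differ with CD90.

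These proteins do different work. CD44 is the receptor for hyaluronan, EPCAM is a cell adhesion molecule of epithelia, prominin-1 (PROM1) sits in membrane protrusions and binds cholesterol, endoglin (ENG) is a co-receptor of the TGF-β family, ALCAM and MCAM are adhesion molecules of the immunoglobulin superfamily, KIT is the receptor tyrosine kinase for stem cell factor, and LGR5 binds R-spondins and strengthens Wnt signalling. CD90 itself is a small glycoprotein held in the membrane by a GPI anchor. In the liver EPCAM and PROM1 are known from bile duct epithelium and progenitor cells, while THY1, ENG and MCAM are better known from stromal and endothelial cells.

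The libraries held 9345680 to 10551516 reads in HuCCT1/CD90- and 8587634 to 9327650 in HuCCT1/CD90+, and values are RPM, a library's reads of a gene scaled to a common library total. Each gene was read over 1 amplicon and amplicons amplify unequally, so the lines were compared for each gene and no gene was ranked above another, and sums of RPM or likeness of RPM between genes depend on amplification too. A library floor of 3 reads was worth 0.284 to 0.349 RPM, and 6713 genes did not rise above it in any library. A gene is said to have risen or fallen when limma's Benjamini-Hochberg adjusted p over all 20811 genes was at most 0.05 and the fold on the log2(RPM + 1) scale at least 1.5. Of all genes 15.1% passed, 7.59% higher and 7.49% lower in HuCCT1/CD90+, and among the 14098 genes over the floor 22.3% did. The labels do not say whether the 3 libraries of a line came from separate cultures, so the p-values measure the spread between these libraries, which may be technical.

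THY1, PROM1, EPCAM and CD44 rose in HuCCT1/CD90+, which is 4 of 9 markers beside the 7.59% of all genes that were higher, and 4 of the 7 over the floor beside 11.2% of all genes over it. THY1 was delivered by the virus, so its rise was set by the design, and without it 3 of 8 markers rose, or 3 of the 6 over the floor. ALCAM was higher in each HuCCT1/CD90+ library by less than the required fold, ENG and MCAM overlapped between the lines, and KIT and LGR5 were at the floor in both. None of the 9 fell. The median log2 difference was 0.49 over the 9 and 2.57 over the 7 above the floor (0.30 and 1.53 without THY1), beside 0 over all genes and -0.0087 over all genes above the floor. With replicate numbers as a block, which left 10.1% of all genes called, the same 4 markers passed. The summed RPM of the 9 went from 389 to 479 in the HuCCT1/CD90- libraries to 934 to 1062 in the HuCCT1/CD90+ libraries. Most of that rise was EPCAM (mean 28.6 against 363 RPM) and ALCAM (333 against 468 RPM), which is not counted as risen. THY1, set by the design, added a mean of 57.4 RPM in HuCCT1/CD90+. In bulk RNA, fewer cells that carry a marker and less of its RNA per cell cannot be told apart.

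**Figure D1:**
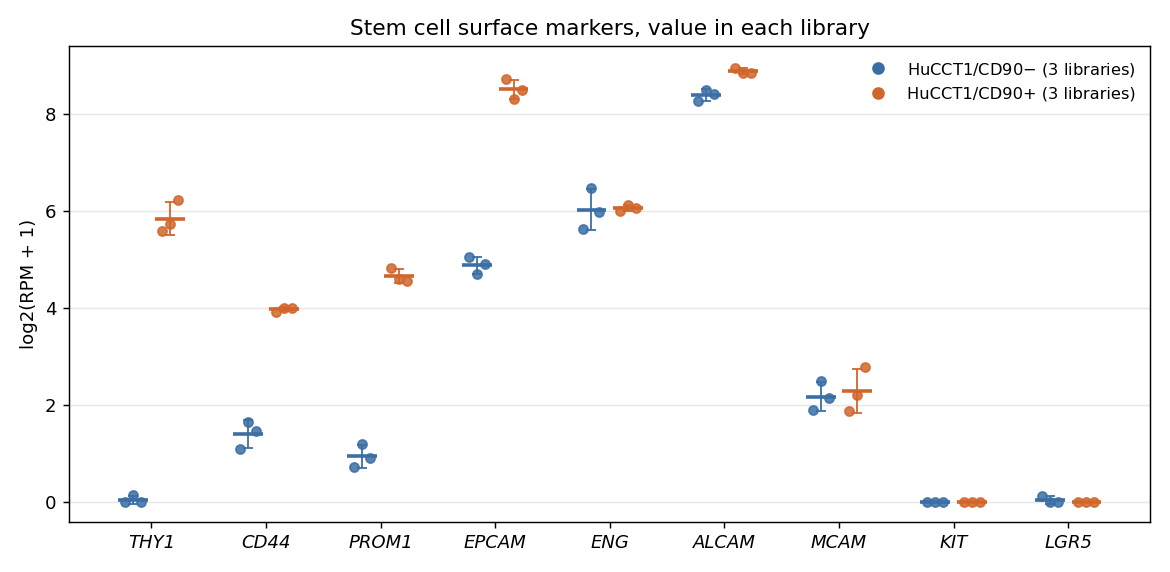
Level of the 9 markers as log2(RPM + 1) in each of the 6 libraries, with dots for libraries, a line for the mean of 3 and a bar for the SD. THY1, CD44, PROM1 and EPCAM stand apart between the lines by 5.79, 2.57, 3.72 and 3.62 log2 units, ALCAM by 0.49, ENG and MCAM overlap, and KIT and LGR5 lie at or next to 0.

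THY1 (ENSG00000154096.13, chr11:119417378-119424985, minus strand, here and below in GENCODE 29 on GRCh38) was the gene delivered. The control line gave 0, 1 and 0 THY1 reads and HuCCT1/CD90+ gave 435, 445 and 680, or 46.6, 51.8 and 73.8 RPM. The control line thus had no THY1 above the floor, and the reads matched the labels in all 6 libraries. Against the floor the mean of 57.4 ± 14.4 RPM (SD, n = 3) was at least 179-fold higher (log2 difference 5.79, SE 0.19, adjusted p = 0.00045). The position of the amplicon is not given in the sources used here, so reads of the transgene and of the chromosomal gene cannot be told apart. MCAM lies 95.9 kb from THY1 on the same arm, and its values, given below, overlapped between the lines. Of the genes averaging 10 RPM or more, the 3 whose values over the 6 libraries were nearest to those of THY1 were FGD3, ESRP1 and COBL, at root mean square differences of 0.27, 0.31 and 0.32 log2 units. In HuCCT1/CD90- none of the 3 exceeded 0.284 RPM, and in HuCCT1/CD90+ FGD3 ranged from 40.6 to 56.6, ESRP1 from 54.6 to 64.9 and COBL from 62.1 to 77.7 RPM.

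The epithelial marker EPCAM (ENSG00000119888.10, chr2:47345158-47387601, plus strand) was read often enough for a precise comparison. It measured 32.1, 24.9 and 28.8 RPM in HuCCT1/CD90- and 416, 316 and 357 RPM in HuCCT1/CD90+. The lowest HuCCT1/CD90+ library held 2712 EPCAM reads and the highest HuCCT1/CD90- library 339. The means of 28.6 ± 3.60 and 363 ± 50.5 RPM (SD, n = 3 each) differed 12.7-fold (log2 difference 3.62, SE 0.15, adjusted p = 0.00070). Claudin-7 (CLDN7), a tight junction protein that binds EPCAM in the membrane, rose 5.63-fold, from 40.3 ± 2.56 to 227 ± 18.8 RPM (n = 3 each, log2 difference 2.46, adjusted p = 0.00045). The genes whose values lay nearest to those of EPCAM were the interferon-induced IFIT2 and IFIT1 and the death-associated kinase DAPK1, at differences of 0.48, 0.51 and 0.55 log2 units.

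PROM1 (ENSG00000007062.11, chr4:15963076-16084378, minus strand) gave 7, 12 and 9 reads in HuCCT1/CD90-, just over the floor, and 255, 199 and 208 in HuCCT1/CD90+. That was 0.663, 1.28 and 0.873 RPM against 27.3, 23.2 and 22.6 RPM. All 3 HuCCT1/CD90+ libraries were far above the control line, and the means of 0.940 ± 0.316 and 24.4 ± 2.60 RPM (SD, n = 3 each) differed 25.9-fold (log2 difference 3.72, SE 0.15, adjusted p = 0.00070). Prominin-2 (PROM2), the second member of the family and typical of epithelial protrusions, was measured at 36.7, 69.5 and 56.5 RPM in HuCCT1/CD90- and at 150, 263 and 190 RPM in HuCCT1/CD90+. The lines did not overlap and the means differed 3.71-fold (log2 difference 1.88, SE 0.34, adjusted p = 0.027), with a wider spread than PROM1. Its adjusted p rose to between 0.051 and 0.092 when any 1 of the 6 libraries was left out. In this fit without the block PROM2 thus passed only with all of them. Under the block, with all 6 libraries, the call held (limma adjusted p = 0.018).

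**Figure D2:**
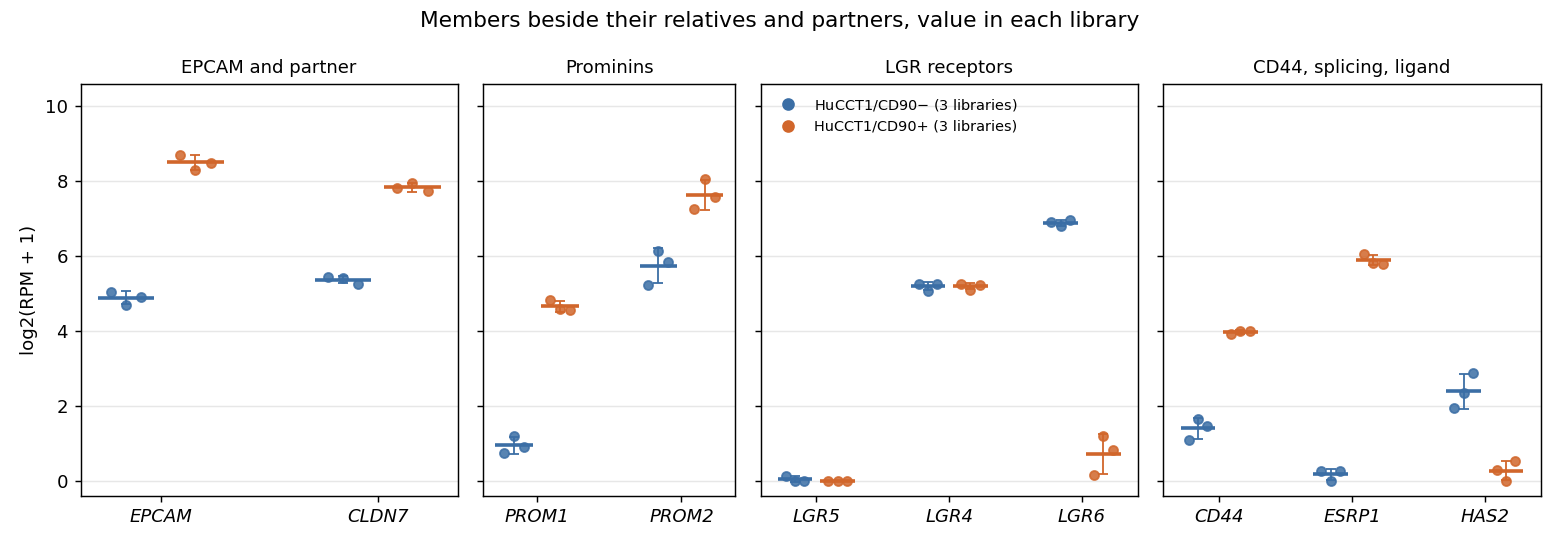
Markers beside the relatives and partners named in the text, as log2(RPM + 1) in each library with the mean and SD of 3 libraries per line. EPCAM, CLDN7, PROM1, PROM2, CD44 and ESRP1 are higher in every HuCCT1/CD90+ library, LGR6 and HAS2 are lower in every one, LGR4 overlaps and LGR5 is at the floor.

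CD44 (ENSG00000026508.18, chr11:35138870-35232402, plus strand) had few reads in this panel. The HuCCT1/CD90- libraries held 12, 20 and 18 reads and the HuCCT1/CD90+ libraries 132, 128 and 138, or 1.14, 2.14 and 1.75 RPM against 14.2, 14.9 and 15.0 RPM. The counts left no overlap, and the means of 1.67 ± 0.505 and 14.7 ± 0.457 RPM (SD, n = 3 each) differed 8.77-fold (log2 difference 2.57, SE 0.16, adjusted p = 0.0018). CD44 is made in many splice forms. GENCODE lists 10 basic coding transcripts for it with 2 to 18 coding exons and proteins of 78 to 742 residues, against 3 transcripts of 144 to 161 residues for THY1. A single amplicon reads only the forms that hold it, so the rise is that of the forms read and not necessarily of all CD44 RNA.

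Among the proteins that act on CD44 RNA and protein, the splicing regulators of epithelia ESRP1 and ESRP2 also rose. ESRP1, which favours the inclusion of variable CD44 exons, had 0.190, 0 and 0.194 RPM in HuCCT1/CD90- and 64.9, 55.3 and 54.6 RPM in HuCCT1/CD90+. It was at least 181-fold higher against the floor (log2 difference 5.72, adjusted p = 0.00022). Its relative ESRP2 was present in both lines and rose 1.59-fold, from 34.9 ± 2.81 to 55.5 ± 2.33 RPM (n = 3 each, log2 difference 0.66, adjusted p = 0.0067). Of the enzymes that cut these markers, MMP14, a membrane metalloprotease that sheds CD44, went from 325 ± 94.0 to 137 ± 11.1 RPM (n = 3 each, log2 difference -1.20, adjusted p = 0.032). That call was lost under the block (adjusted p = 0.078) and without HuCCT1/CD90- replicate 3 or any of the 3 HuCCT1/CD90+ libraries (adjusted p = 0.090 to 0.11). Nicastrin (NCSTN), a subunit of the γ-secretase that cuts CD44 and EPCAM within the membrane, fell 2.07-fold from 378 ± 32.2 to 183 ± 4.90 RPM (n = 3 each, log2 difference -1.04, adjusted p = 0.0022). The sheddases ADAM10 and ADAM17 did not pass, with log2 differences of 0.49 (adjusted p = 0.022, under the required fold) and -0.17 (adjusted p = 0.52). In all, 2 of the 11 genes of splicing and shedding rose, 2 fell and 7 did not pass, with a median of -0.17. Where calls were counted under the block, 3 of the 11 passed.

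Genes that make or are ligands of CD44 included 2 that fell. Hyaluronan synthase 2 (HAS2), which makes the ligand, was measured at 2.84, 4.07 and 6.31 RPM in HuCCT1/CD90- and at 0.214, 0 and 0.434 RPM in HuCCT1/CD90+. All 3 HuCCT1/CD90- libraries were higher, by a log2 difference of -2.12 (SE 0.29, adjusted p = 0.014), and the adjusted p passed 0.05 without HuCCT1/CD90- replicate 2 (0.053) or without HuCCT1/CD90+ replicate 1 (0.055) or 2 (0.052). Osteopontin (SPP1), a secreted matrix protein that binds CD44 and integrins, fell 66.2-fold, from 31.8 ± 12.1 to 0.480 ± 0.273 RPM (n = 3 each, log2 difference -4.41, adjusted p = 0.0034). That fold rests on 2, 4 and 7 reads in HuCCT1/CD90+, near the floor. It ran from 51.8 to 93.5 when 1 library was left out. The integrin subunit ITGB3, a partner through which CD90 binds other cells, fell 20.6-fold from 20.7 ± 3.93 to 1.01 ± 0.451 RPM (n = 3 each, log2 difference -3.44, adjusted p = 0.0020). It had 8, 13 and 6 reads in HuCCT1/CD90+. Of the 23 ligands and partners of the 9 markers, 3 rose, 5 fell and 15 did not pass, 8 of these at the floor in both lines, with a median of -0.044 and of -0.33 over those above the floor. Under the block 2 rose and 5 fell.

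Promoters are shown for 3 markers that represent the different results: PROM1 and CD44, which rose, and ENG, which overlapped. Each is 300 bases from RefSeq on GRCh38.p14, with 250 before and 50 from the annotated start, written 5′ to 3′ on the strand of the gene, and capitals mark CAGGTG or its reverse complement CACCTG, the E-box that the repressors of epithelial genes ZEB1 and SNAI2 are known to bind. The regions are chr4:16083974-16084273 (minus strand) for PROM1, chr11:35138921-35139220 (plus strand) for CD44 and chr9:127854609-127854908 (minus strand) for ENG.
PROM1: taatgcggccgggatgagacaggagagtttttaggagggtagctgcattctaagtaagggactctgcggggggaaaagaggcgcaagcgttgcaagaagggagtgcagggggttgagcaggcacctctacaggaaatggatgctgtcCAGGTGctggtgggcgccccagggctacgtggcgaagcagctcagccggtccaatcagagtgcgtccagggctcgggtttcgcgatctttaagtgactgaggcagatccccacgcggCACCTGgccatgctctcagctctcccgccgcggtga
CD44: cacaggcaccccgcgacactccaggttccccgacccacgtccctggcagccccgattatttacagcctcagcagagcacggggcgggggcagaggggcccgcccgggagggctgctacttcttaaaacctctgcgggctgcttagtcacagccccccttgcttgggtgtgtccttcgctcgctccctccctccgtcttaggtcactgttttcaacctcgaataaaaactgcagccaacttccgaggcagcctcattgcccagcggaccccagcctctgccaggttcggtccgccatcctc
ENG: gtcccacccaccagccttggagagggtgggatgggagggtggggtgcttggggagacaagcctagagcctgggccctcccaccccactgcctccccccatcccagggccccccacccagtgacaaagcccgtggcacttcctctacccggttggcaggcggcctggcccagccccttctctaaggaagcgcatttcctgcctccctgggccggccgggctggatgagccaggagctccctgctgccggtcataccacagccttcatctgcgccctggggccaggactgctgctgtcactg
The PROM1 window held the E-box at 2 places, beginning at -103 and 14 relative to the start, and the windows of CD44 and ENG held none. Of the 6 markers with a RefSeq window, 3 held it: PROM1, ALCAM (1, at -109) and MCAM (1, at -235), while CD44, ENG and KIT did not. Of all 27305 promoter windows 20.6% held it. No window was used for THY1, EPCAM and LGR5. The 6 windows ranged in GC content from 60.7% in PROM1 to 78.0% in MCAM, beside a median of 58.3% over all windows. They held 8 CpG in ENG, 18 in PROM1 and in CD44, and 26 to 38 in ALCAM, MCAM and KIT, beside a median of 14. PROM1 and CD44, which rose, had the lowest GC content of the 6. A match of these letters is a description and not a binding site.

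ENG (ENSG00000106991.13, chr9:127815012-127854756, minus strand) was measured at 48.5, 88.1 and 61.6 RPM in HuCCT1/CD90- and at 62.8, 68.1 and 65.3 RPM in HuCCT1/CD90+. The values overlapped, with means of 66.1 ± 20.1 and 65.4 ± 2.65 RPM (SD, n = 3 each), and the log2 difference of 0.028 had a 95% interval from -0.60 to 0.66 (adjusted p = 1). MCAM (ENSG00000076706.16, chr11:119308529-119321521, minus strand) was low in both lines, at 2.75, 4.60 and 3.40 RPM against 2.68, 3.61 and 5.86 RPM. Its log2 difference of 0.11 had an interval from -0.68 to 0.90 (adjusted p = 0.99). NT5E (CD73), the ecto-nucleotidase that is used with CD90 and CD105 among the markers of mesenchymal stromal cells and was picked for naming after its values were seen, went from 89.7, 76.4 and 92.9 RPM to 161, 139 and 121 RPM. Its lines did not overlap and it rose 1.63-fold (log2 difference 0.69, adjusted p = 0.035), but the call was lost under the block (adjusted p = 0.10) and without any 1 of the 6 libraries (adjusted p = 0.052 to 0.11).

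Relatives of these receptors gave calls in both directions. TGFBR3 (betaglycan), which like endoglin presents TGF-β ligands, rose from 34.4 ± 2.89 to 54.0 ± 2.69 RPM (n = 3 each, log2 difference 0.64, adjusted p = 0.0089). Without HuCCT1/CD90- replicate 2 its log2 difference was 0.58, just under the required fold. BCAM, a laminin-binding adhesion molecule related to MCAM and ALCAM, fell from 87.0 ± 11.4 to 39.0 ± 4.56 RPM (n = 3 each, log2 difference -1.13, adjusted p = 0.010), and the block ended that call (adjusted p = 0.079). PDGFRB, a receptor kinase of the family of KIT and a marker of stromal cells, fell from 5.49 ± 0.541 to 0.697 ± 0.144 RPM (n = 3 each, log2 difference -1.94, adjusted p = 0.00099). Of the 10 relatives listed, 2 rose (PROM2 and TGFBR3), 3 fell (LGR6, PDGFRB and BCAM) and 5 did not pass, 2 of them at the floor. The median was -0.024, and -0.098 over the relatives above the floor. Under the block 2 rose and 2 fell.

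ALCAM (ENSG00000170017.12, chr3:105366909-105576900, plus strand), the ligand of CD6 on T cells and a marker of tumour-initiating cells in several epithelia, was well measured in both lines. It stood at 304, 358 and 336 RPM in HuCCT1/CD90- and at 492, 457 and 456 RPM in HuCCT1/CD90+. The lines did not overlap, and the means of 333 ± 27.5 and 468 ± 20.5 RPM (SD, n = 3 each) differed 1.41-fold (log2 difference 0.49, SE 0.074, 95% interval 0.30 to 0.69, adjusted p = 0.017). The fold was below 1.5, so ALCAM is not counted as risen, and its adjusted p was 0.095 under the block and 0.027 to 0.062 when 1 library was left out. Its surroundings were higher too. Of its 50 closest genes that averaged 10 RPM or more, over 26.8 Mb of chromosome 3, 40 were higher in HuCCT1/CD90+ and 10 lower, with a median log2 difference of 0.58 and 18 called higher and 3 lower. With that median taken off, the difference of ALCAM was -0.084 (adjusted p = 0.59). The part of these surroundings in the difference of ALCAM was not tested.

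**Figure D3:**
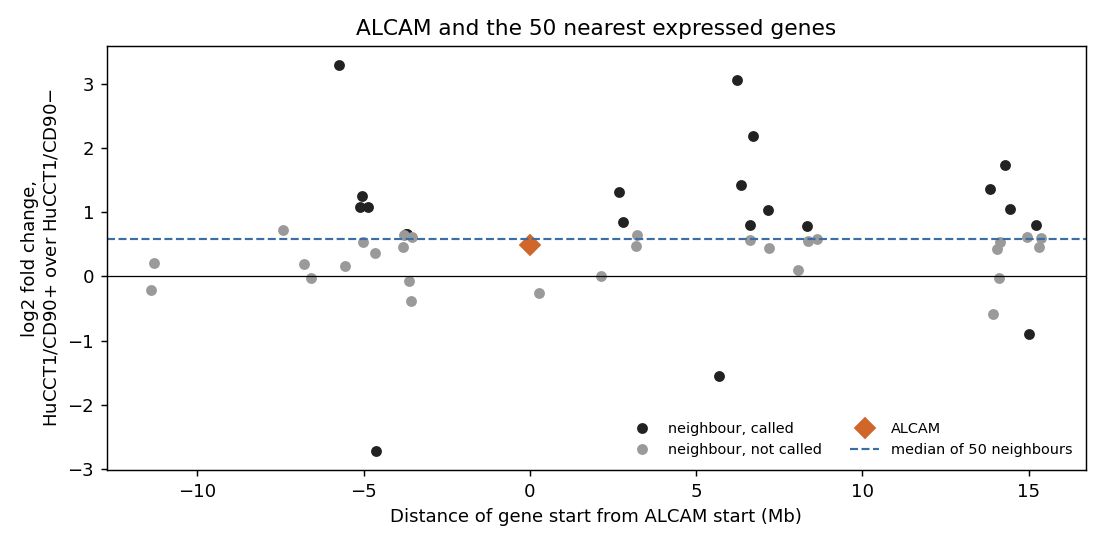
Log2 difference (HuCCT1/CD90+ minus HuCCT1/CD90-) of ALCAM and of its 50 closest genes averaging 10 RPM or more, against their distance from ALCAM in Mb, with the median of the neighbours as a dashed line. Of the neighbours 40 lie above 0, and ALCAM at 0.49 lies close to their median of 0.58.

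For the 4 markers that rose, the median over the surrounding genes was small beside the marker's own difference, although single neighbours moved by as much as -7.41 (near THY1) and -3.37 (near PROM1). The median over the 50 closest genes was 0.12 for THY1 and for MCAM, 0.15 for CD44, -0.11 for EPCAM, -0.26 for PROM1, -0.034 for ENG, 0.14 for LGR5 and 0.42 for KIT. With these medians taken off, THY1 differed by 5.68, CD44 by 2.43, PROM1 by 3.96 and EPCAM by 3.73. Medians this small could not have altered these calls. Reads of THY1 may also come from the transgene, for which the neighbours of the chromosomal gene are no reference. The part of the surroundings in the differences of these markers was not tested. Of the 50 neighbours of PROM1, 38 were lower in HuCCT1/CD90+ while it rose itself.

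KIT (ENSG00000157404.15, chr4:54657918-54740715, plus strand) had 0 reads in all 6 libraries, which allows up to 0.284 to 0.349 RPM per library. LGR5 (ENSG00000139292.12, chr12:71439770-71586310, plus strand) had 1 read in HuCCT1/CD90- replicate 1, or 0.0948 RPM, and none in the other 5. At this depth neither marker was detectable above the floor in either line, and no fold is given. The ligand of KIT, stem cell factor (KITLG), was expressed. It went from 22.5, 19.6 and 15.6 RPM in HuCCT1/CD90- to 9.86, 8.27 and 8.57 RPM in HuCCT1/CD90+ and fell 2.16-fold (log2 difference -1.02, adjusted p = 0.017). Without HuCCT1/CD90- replicate 2, HuCCT1/CD90+ replicate 2 or HuCCT1/CD90+ replicate 3 its adjusted p was 0.064, 0.065 and 0.071.

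The 3 R-spondin receptors of the LGR family differed from one another. LGR4, the widely expressed one, was measured at 37.0, 32.5 and 37.3 RPM in HuCCT1/CD90- and at 37.4, 33.3 and 36.6 RPM in HuCCT1/CD90+ (log2 difference 0.0068, adjusted p = 1). Its sign turned under both quantile normalization (-0.020) and median centring (-0.020). LGR6, which marks stem cells of the skin appendages, was measured at 119, 110 and 123 RPM against 0.107, 1.28 and 0.760 RPM. It fell 164-fold (log2 difference -6.17, SE 0.29, adjusted p = 0.00098), a fold that rests on 1, 11 and 7 reads in HuCCT1/CD90+. The fold was 115 without HuCCT1/CD90+ replicate 1 and 271 without HuCCT1/CD90+ replicate 2. Of the 15 genes measured in the list of Wnt and LGR5 stem cell genes, which did not include ASCL2, 2 rose, 1 fell and 12 did not pass, 5 of them at the floor, with a median of -0.044 and of 0.11 over those above the floor. The ephrin receptor EPHB3, a Wnt target of the intestinal crypt, rose 34.6-fold from 0.463 ± 0.106 to 16 ± 1.28 RPM (n = 3 each, log2 difference 3.54, adjusted p = 0.00030). That fold rests on 4, 4 and 6 reads in HuCCT1/CD90-, just over the floor. TNFRSF19 (TROY), another crypt gene, had no read in HuCCT1/CD90- and 3.77 ± 0.961 RPM (n = 3) in HuCCT1/CD90+, which makes it at least 11.7-fold higher (adjusted p = 0.0026). LEF1, a transcription factor of the pathway, had 4.02 ± 1.15 RPM (n = 3) in HuCCT1/CD90- and no read in HuCCT1/CD90+, which makes it at least 11.5-fold lower (adjusted p = 0.0027). The same 3 calls were counted under the block.

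The wider set of stem cell surface markers gave no common direction. Of 22 written down, 21 were measured and CD24 was not, and of the 21, 7 rose, 5 fell and 9 did not pass, 4 of these at the floor in both lines. The median was 0, and -0.091 over those above the floor, beside -0.0087 over all genes above the floor. Under the block 4 rose and 5 fell. ABCG2, the transporter behind the dye-excluding side population by which stem cells are sorted, fell from 29.5, 24.1 and 32.7 RPM to 1.82, 1.86 and 1.52 RPM, a 16.6-fold difference in the means (log2 difference -3.44, SE 0.13, adjusted p = 0.00061). LRIG1, a brake on growth factor receptors that marks quiescent epithelial stem cells, fell from 37.1, 42.2 and 37.7 RPM to 3.22, 4.42 and 3.47 RPM, or 10.5-fold (log2 difference -3.09, SE 0.12, adjusted p = 0.00059). Podocalyxin (PODXL), a sialomucin related to CD34, rose 3.75-fold, from 74.4 ± 19.0 to 279 ± 17.8 RPM (n = 3 each, log2 difference 1.92, adjusted p = 0.0070), and stood at the threshold under the block (adjusted p = 0.050, just above it). The collagen-binding integrin subunit ITGA2 (CD49b) rose 3.32-fold, from 53.5 ± 12 to 177 ± 15.0 RPM (n = 3 each, log2 difference 1.73, adjusted p = 0.0083). The 4 with the largest change thus included 2 that fell and 2 that rose.

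**Figure D4:**
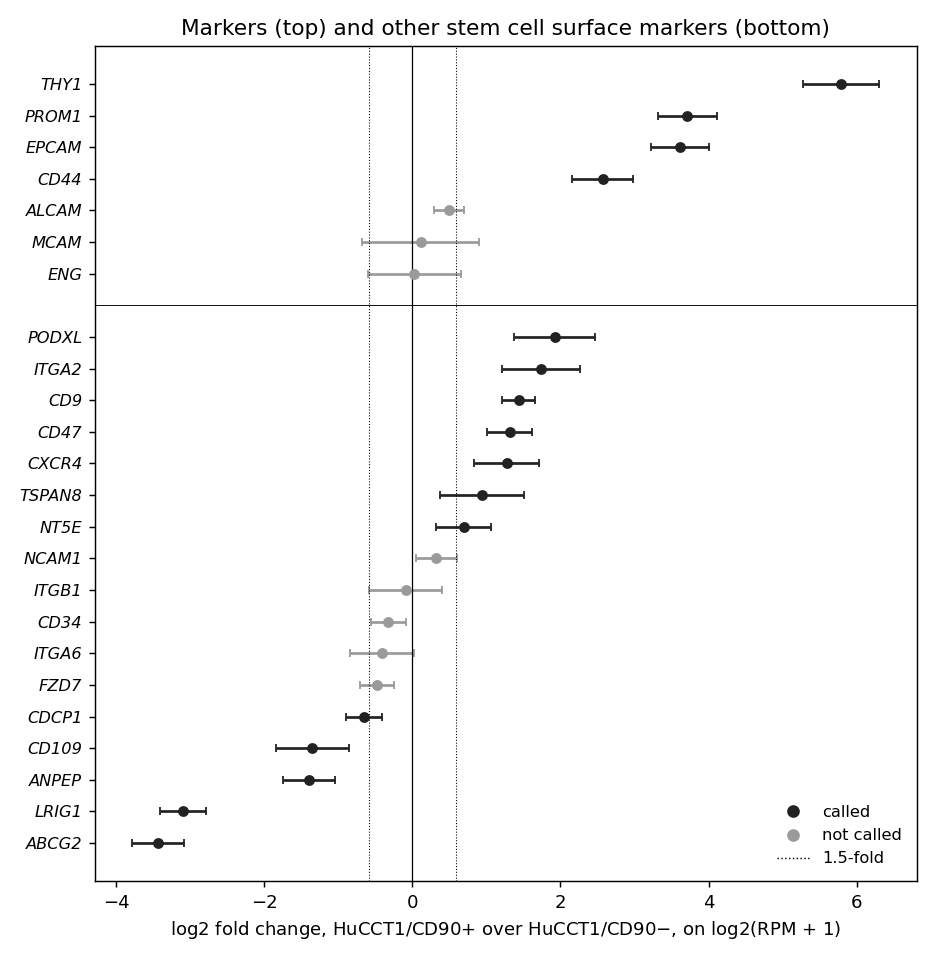
Log2 difference (HuCCT1/CD90+ minus HuCCT1/CD90-) with its 95% interval from limma for the 7 markers (top) and 17 other stem cell surface markers (bottom) over the floor, black where called and grey where not, with 1.5-fold as dotted lines. THY1, PROM1, EPCAM and CD44 lie wholly to the right, ABCG2 and LRIG1 to the left, and the intervals of ENG and MCAM span 0.

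Of 10 genes linked to pluripotency, which include transcription factors, RNA-binding proteins and a surface co-receptor, 5 were at the floor in both lines, 1 rose and none fell (median 0.025, and -0.012 over those above the floor). The one that rose was KLF4, which also acts in epithelial differentiation, from 0.379, 1.82 and 1.75 RPM to 10.9, 9.78 and 13.2 RPM (log2 difference 2.47, SE 0.34, adjusted p = 0.013). Its adjusted p was 0.056 under the block, where none of the 10 passed, and 0.054 and 0.059 without HuCCT1/CD90+ replicate 1 and 3. The summed level of the 10 genes ran from 3.60 to 6.63 RPM over the HuCCT1/CD90- libraries and from 13.7 to 15.8 RPM over the others. Without KLF4 the other 9 summed to 3.22 to 4.82 RPM against 2.61 to 5.12 RPM, which overlapped.

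Several of the 9 markers also mark other cell types, so the marker lists of these were read in the same libraries. The 9 bile duct markers, whose sum is mostly keratins while CFTR and ONECUT1 lay below 1 RPM on average in both lines, summed to between 8226 and 9301 RPM in HuCCT1/CD90- and to between 10560 and 11366 RPM in HuCCT1/CD90+. The keratins KRT7 and KRT19 gave log2 differences of 0.091 (adjusted p = 0.65) and 0.36 (adjusted p = 0.029, under the required fold), while KRT18 rose from 645 ± 30.1 to 1266 ± 78.2 RPM (n = 3 each, log2 difference 0.97, adjusted p = 0.0019), and in all 2 of the 9 rose and 1 fell. The summed levels of the blood, vessel and stromal lists, though not of each gene in them, were lower in each HuCCT1/CD90+ library than in any HuCCT1/CD90- library. The 7 haematopoietic markers summed to 103 to 116 RPM against 4.99 to 6.75 RPM, with 1 higher (CD79A, 0 against 1.08 RPM, adjusted p = 0.0089) and 2 lower. The sum held CD14 (80.8 ± 10.1 against 4.32 ± 0.195 RPM, n = 3 each) and HLA-DRA (28.6 ± 5.57 against 0.113 ± 0.117 RPM, n = 3 each), while the pan-leukocyte marker PTPRC stayed at the floor in both. The 9 endothelial markers summed to 18.5 to 27.7 RPM against 5.32 to 5.71 RPM (1 higher, 2 lower, CLDN5 at 0, and 1 in each direction under the block). ESAM, a junction protein of vessels, rose from 0.329 ± 0.220 to 3.54 ± 0.412 RPM (n = 3 each, adjusted p = 0.0034), and CDH5, the cadherin of vessels, fell from 16.6 ± 3.17 to 0.293 ± 0.118 RPM (n = 3 each). The 9 fibroblast markers summed to 60.6 to 91.5 RPM against 21.4 to 26.2 RPM, with 6 lower and none higher (3 lower under the block), and POSTN fell from 24.2 ± 4.71 to 1.25 ± 0.171 RPM (n = 3 each). The part of these cell type markers in the values of ENG, MCAM, LGR6 and the ligands was not tested.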

How the data were processed

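RNA of 6 libraries of the HuCCT1 line was measured, 3 with the THY1 lentivirus and 3 with the blank one. The authors amplified cDNA with the Ion AmpliSeq Transcriptome panel, took read counts from the ampliSeqRNA plugin of Torrent Suite and deposited them as RPM for 20811 genes, 1 amplicon each. The submitters' processing notes name hg19 and the Transcriptome Analysis Console. All values (100%) were whole reads within 0.1 read, so depth was recovered. PCR copies could not be told from separate molecules, so the floor of 3 reads covers counting error alone. Libraries of a line differed by more than sampling noise (chi-square per degree of freedom 9.66 to 26.5), so none was a copy of another.

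All genes were fitted with limma 3.58.1 (R 4.3.3) on log2(RPM + 1) with no filter on low values, adjusted over 20811 genes, and fold changes on this scale understate those of low genes. Of these genes 3805 had no reads, and the estimate of spread borrowed little between genes (prior degrees of freedom 0.45, against 7.23 where genes averaging under 1 RPM were left out). The fit was tried on simulated data made from this comparison. Over 20811 genes it picked out 28 of 50 genes changed 4-fold up and 4 of 50 changed 2-fold up. Over the 8782 genes averaging 10 RPM or more it picked out 50 and 50. In the simulation 20611 of the 20811 genes, and 8582 of the 8782, were left unchanged. In the real comparison 15.1% of all genes passed. The adjustment depends on the share of changed genes, so the simulated counts do not carry over to the real comparison. Alternatives were other pseudocounts, filters, normalizations and folds, edgeR 4.0.16 and DESeq2 1.42.0 on the recovered reads, leaving out each library and taking off the median of neighbouring genes. Same-numbered libraries deviated together (r = 0.21, 0.32 and 0.18, against -0.29 to 0.071 for different numbers), so the numbers were taken to pair them and were also fitted as a block. Gene positions and transcripts are from GENCODE 29 and promoters from RefSeq. Ranges of levels in the text are over libraries.

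The 9 markers and all gene lists were chosen with earlier results of these data known. Named were all markers, of each other list the called genes with the largest difference (at most 4) and the genes needed to read a marker, and the 3 genes nearest in level to THY1 and to EPCAM. The text names further genes of the cell type lists, and NT5E, outside that rule, after their values were seen. Outside the 10 relatives counted, 1 further gene is not reported here.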

Additional observations from a re-analysis of the deposited data

How the results depend on the processing

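With replicate numbers as a block, 4 markers, 26 of the 90 genes measured in the 6 lists around them (33 without the block) and 2102 of all 20811 genes (3138) passed. Over the other settings 4 markers passed, and 3 where a mean of at least 10 RPM was required, because CD44 lies under it. Without 1 library 4 markers, 23 to 30 listed genes and 1868 to 2414 of all genes passed. The fewest listed genes passed without HuCCT1/CD90+ replicate 1, and the fewest of all genes without HuCCT1/CD90+ replicate 3. A fold of at least 2 left 1874 of all genes. The log2 difference of THY1 ranged from 3.61 to 10.66 over the settings, of PROM1 from 2.30 to 4.72, of CD44 from 1.56 to 3.15 and of EPCAM from 3.45 to 3.73.

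Signs turned only for ENG, MCAM, ALCAM and LGR4 among the markers and other genes followed. ENG, at 0.028, was -0.0050 with quantile normalization, -0.0088 and -0.0099 with edgeR without and with its filter, -0.0021 with DESeq2, and -0.17 to 0.25 without 1 library. MCAM ranged from -0.13 to 0.32 without 1 library. ALCAM was -0.084 with the median of its neighbours taken off. LGR4 was -0.020 with quantile normalization and with median centring, -0.20 with its neighbours taken off, and -0.055 to 0.056 without 1 library. Of the values of the other genes followed, 67 fell below the threshold in the same direction. A further 777 kept the outcome of the main fit, called or not called. The 777 thus include values of genes that did not pass there, such as ADAM17 and KRT7. With 3 libraries a line, genes of few reads such as MCAM are measured too coarsely for small differences.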
